A study of Mus musculus with 15 samples.

Results

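The 9 genes described here encode receptors that steer B cells through lymphoid tissue: the chemokine receptors *Cxcr4*, *Cxcr5* and *Ccr7*, the lipid receptors *S1pr1*, *S1pr2* and *Gpr183*, the integrin chains *Itga4* and *Itgb7*, and *Cd69*. They are a list of symbols, chosen with earlier results of these data known, out of 41388 genes counted, and all 9 were found. RNA was sequenced from A20 cells, a BALB/c mouse B-cell lymphoma line, in 15 libraries: 3 from the parental line with wild-type *Foxp1*, and 3 from each of 4 clones edited by CRISPR/Cas9 in *Foxp1*, a forkhead transcription factor of B cells. Clones E6.1 and E6.2 were targeted in exon 6 and clones E7.1 and E7.2 in exon 7. The libraries of a line are reported as biological replicates, and their labels give a replicate number but no passage. Each edited line is 1 clone, so a p value covers the spread between replicates of a line and not the spread between independently edited clones. The clones were grown from single sorted cells.

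B cells find follicles by following CXCL13 with CXCR5, are held in bone marrow stroma and the germinal center dark zone by CXCL12 acting on CXCR4, and enter the T zone and its border with CCR7 and with the oxysterol receptor encoded by *Gpr183* (EBI2). The sphingosine 1-phosphate receptor encoded by *S1pr1* draws lymphocytes out of tissue into blood and lymph, while that encoded by *S1pr2* keeps germinal center B cells inside the follicle. CD69 binds the *S1pr1* product and removes it from the surface, and the integrin chains encoded by *Itga4* and *Itgb7* pair with each other, or *Itga4* with *Itgb1*, to hold cells to vessel walls and stroma.

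*Foxp1* itself, measured in CPM (counts scaled to the normalized size of each library), was 138 ± 32.7 in the parental line (SD, n = 3), 104 ± 4.6 for E6.1 and 106 ± 2.38 for E6.2, and 56.8 ± 13 for E7.1 and 43 ± 8.19 for E7.2. It fell by 1.29 on the log2 scale in E7.1 (adjusted p = 0.00688) and by 1.69 in E7.2 (adjusted p = 0.00116, edgeR quasi-likelihood test with Benjamini-Hochberg adjustment), and did not pass the test in E6.1 (adjusted p = 0.765) or E6.2 (adjusted p = 0.417). A transcript count does not show whether an edited transcript still encodes protein. Libraries held 26328054 to 39181530 counts, so that 3 counts, the smallest level that could be seen, came to between 0.0751 and 0.118 CPM, counting error only. The summed CPM of 8 B-cell markers was 3500 to 4940, and that of 6 T-cell markers was 0.91 to 2.22, with *Cd3e* at 0 in all libraries. These are bulk measurements, in which fewer cells expressing a gene and less RNA per cell cannot be told apart.

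The third replicate of E6.2 and that of E7.2 stood apart from the other replicates of their lines and are called the outlying libraries here. Their values differed more than 4-fold from the other replicates of their line for 5.63% and 3.04% of the genes tested, against 0.266% to 0.762% in the other 3 lines. Of the homing receptors, *Ccr7* differed by this much in both lines and *Itga4* in E6.2, while the other members that passed the filter differed less. Results for the members called, for *Ccr7* and *Itga4* and for the related gene lists are also given without both.

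On a scale corrected for exon length as well (RPKM), *Cxcr4* was by far the highest of the 9 genes. In the parental line it was at 156 ± 51.2 RPKM (SD, n = 3), above 97.6% of the genes tested. *S1pr2* followed at 17.2 ± 3.55 RPKM, then *S1pr1* at 12.1 ± 4.89, *Cxcr5* at 10.7 ± 3.89, *Cd69* at 8.35 ± 1.66 and *Ccr7* at 6.2 ± 2.69. Neighbours in this order from *S1pr2* to *Ccr7* overlapped in their mean ± SD. *Itga4* was lower at 2.99 ± 0.529 RPKM, *Itgb7* lower again at 0.887 ± 0.153 and *Gpr183* barely detected at 0.0835 ± 0.079. The transcripts of the ligands CXCL12 and CCL19 had 0 counts in all 15 libraries.

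The promoters of the highest and the lowest gene of the list are shown because their base composition differed. Promoter sequences, 250 bases before to 50 bases after the RefSeq transcription start on GRCm38.p6, were found for 5 of the 9 genes (*Cxcr4*, *S1pr2*, *Gpr183*, *Itga4* and *Itgb7*). They are printed 5′ to 3′ on the gene's strand, and capitals mark the letters TATAAA and GGGCGG on either strand. The *Cxcr4* promoter lies at chr1:128592250-128592549 and the *Gpr183* promoter at chr14:121965144-121965443, both on the minus strand.
Cxcr4: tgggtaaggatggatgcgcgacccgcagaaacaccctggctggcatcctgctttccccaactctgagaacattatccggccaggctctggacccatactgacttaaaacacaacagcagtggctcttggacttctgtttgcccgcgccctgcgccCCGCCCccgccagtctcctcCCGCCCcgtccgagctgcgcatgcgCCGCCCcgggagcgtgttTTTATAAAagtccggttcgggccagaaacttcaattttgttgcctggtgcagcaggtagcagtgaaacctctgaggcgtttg
Gpr183: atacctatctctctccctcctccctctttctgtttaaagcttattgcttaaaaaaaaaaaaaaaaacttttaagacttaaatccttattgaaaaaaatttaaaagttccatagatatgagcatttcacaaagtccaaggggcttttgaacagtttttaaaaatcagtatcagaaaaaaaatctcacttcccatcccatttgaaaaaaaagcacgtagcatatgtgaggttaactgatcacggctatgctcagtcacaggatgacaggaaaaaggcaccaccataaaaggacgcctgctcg
The *Cxcr4* window had 59.3% G and C, 3 matches to GGGCGG, read as CCGCCC, and 2 matches to TATAAA that overlap on opposite strands just before the start. The *Gpr183* window had 35.3% G and C and 0 matches to either motif. G and C made up 62.0% of the *S1pr2* window, 64.3% of that of *Itga4* and 56.3% of that of *Itgb7*. These had 1, 1 and 0 matches to GGGCGG, respectively, and 0 to TATAAA. *Itga4* thus had more G and C than *Cxcr4* at a far lower transcript level, and a relation of base composition to level was not tested. The forkhead core TGTTTAC had 0 matches in the 5 windows. On either strand, TATAAA occurred in 13.6%, GGGCGG in 35.7% and TGTTTAC in 3.65% of 32851 promoter windows of this length. A match is only a run of letters, and its absence from these windows does not bear on whether Foxp1 binds elsewhere.

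The first question was whether editing of *Foxp1* changed homing receptor transcripts in each clone. Against the parental line 1 of the 8 genes tested changed in 1 of the 4 clones: *Cd69* fell in E7.1. In this clone 1.22% of all genes tested were called and 0.82% were lower, and the members' median log2 fold change was -0.82 against -0.02 over all genes. No member passed the edgeR test for E6.1 (0.324% of all genes called), for E6.2 (1.17%) or for E7.2 (0.295%), nor in the mean of the 4 clones against the parental line (0.503%). At an unadjusted p under 0.05 in edgeR there were more: 1 member for E6.1 (6.71% of all genes), 2 for E6.2 (13.1%), 3 for E7.1 (20%), 1 for E7.2 (13.3%) and 1 for the mean of the clones (9.9%). With DESeq2 there was 1 in E6.2 (*Cxcr5*), 2 in E7.1 (*Cd69* and *S1pr1*) and 0 in the other 3 comparisons at an adjusted p under 0.05. The 4 comparisons share the parental libraries, so they are not independent of each other.

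**Figure D1:**
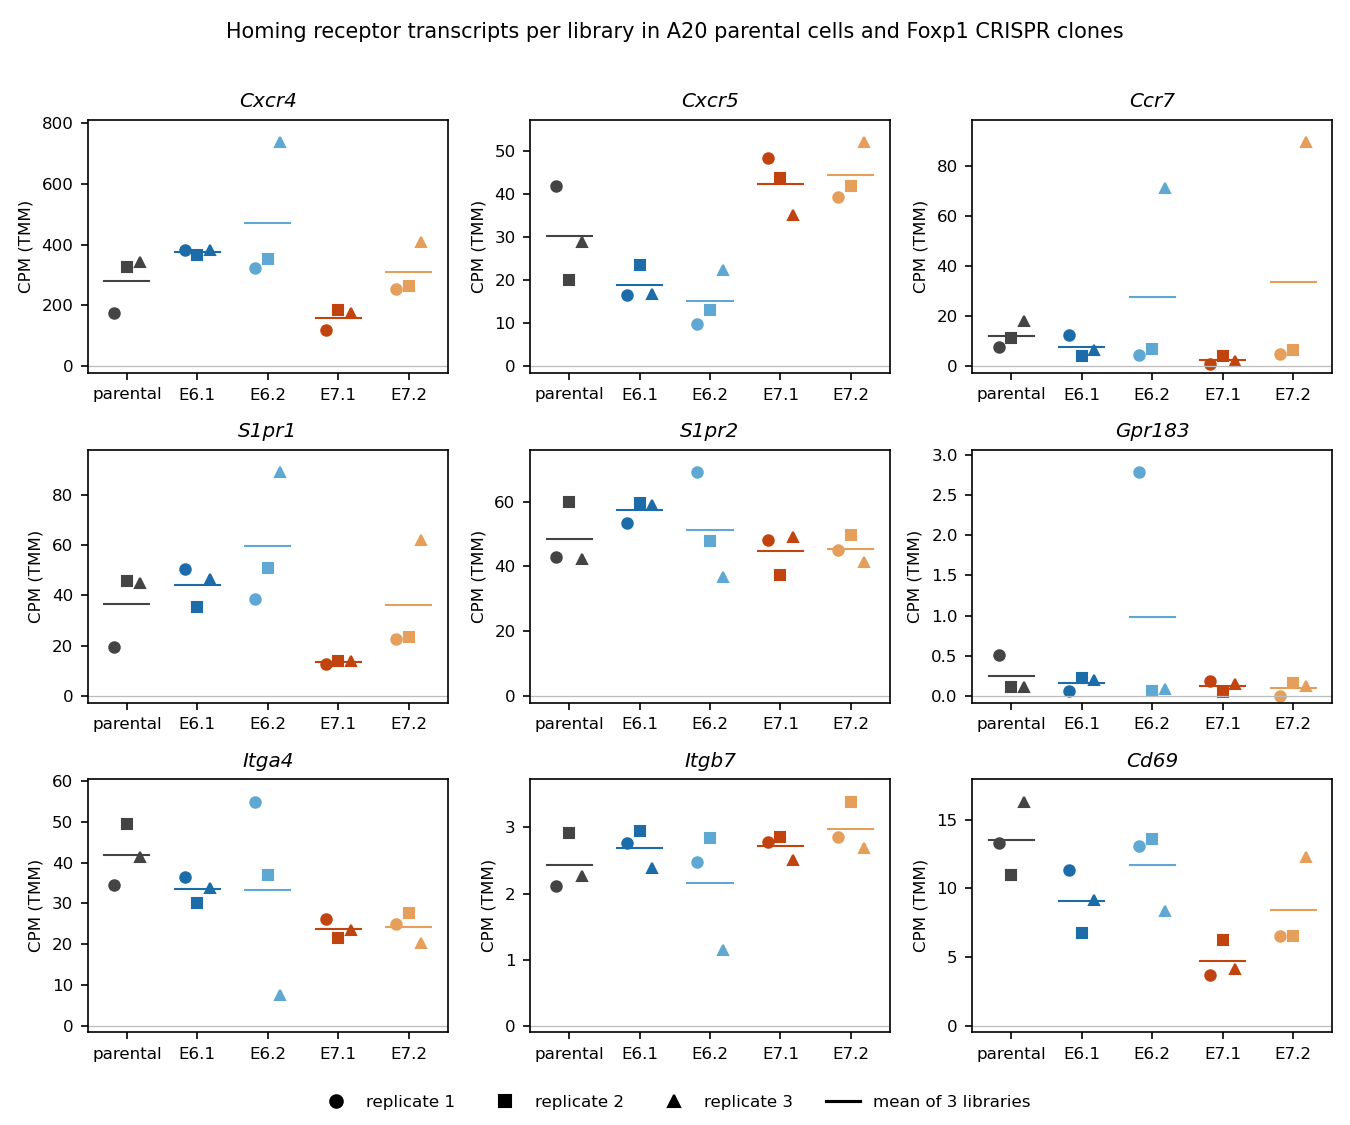
Normalized CPM (vertical axes, linear, one scale per gene) of the 9 homing receptor genes in each of the 15 libraries, by line (horizontal axes). Symbols mark replicates 1 to 3 and bars the mean of the 3 libraries. *Cxcr5* in the 6 exon 7 libraries lies above the 6 exon 6 libraries, and *Ccr7* reaches 71.4 and 89.7 only in the outlying libraries, replicate 3 of E6.2 and replicate 3 of E7.2.

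**Figure D2:**
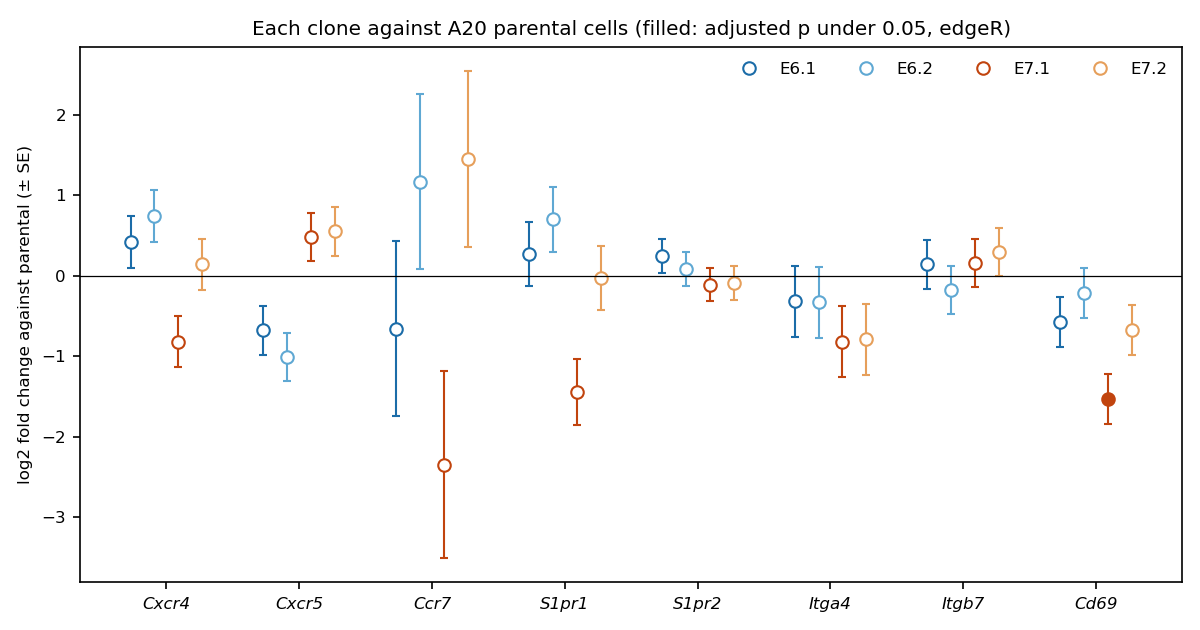
The log2 fold change of each clone against the parental line (vertical axis, points ± SE from edgeR, 3 libraries per line) for the 8 genes tested (horizontal axis). The filled point, *Cd69* in E7.1 at -1.53, is the 1 that passed an adjusted p of 0.05. For *Ccr7* the SE is 1.09 to 1.16, and for *S1pr2* it is 0.21.

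The second question was whether clones targeted in exon 7 differed from clones targeted in exon 6. Here 4 of 8 members passed the test, while 12.1% of all genes tested did, 6.21% higher and 5.85% lower: *Cxcr5* was higher, and *S1pr1*, *Cxcr4* and *Cd69* were lower, in the exon 7 clones. The median log2 fold change was -0.59 over the 8 members and -0.03 over all genes tested. With 2 clones per exon, the targeted exon and the individual clone cannot be fully told apart. Leaving out each clone in turn showed how far the calls rest on 1 clone, an alternative chosen after the data were seen. All 4 were called without E6.1 (14.4% of all genes called) and without E7.2 (15%), only *Cxcr5* was called without E7.1 (1.47%), and 0 were called without E6.2 (1.06%). A test for any difference among the 5 lines called *Cxcr5* (adjusted p = 0.0179) and *S1pr1* (adjusted p = 0.0495, edgeR F-test on 4 degrees of freedom), 2 of 8 members against 6.28% of all genes.

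**Figure D3:**
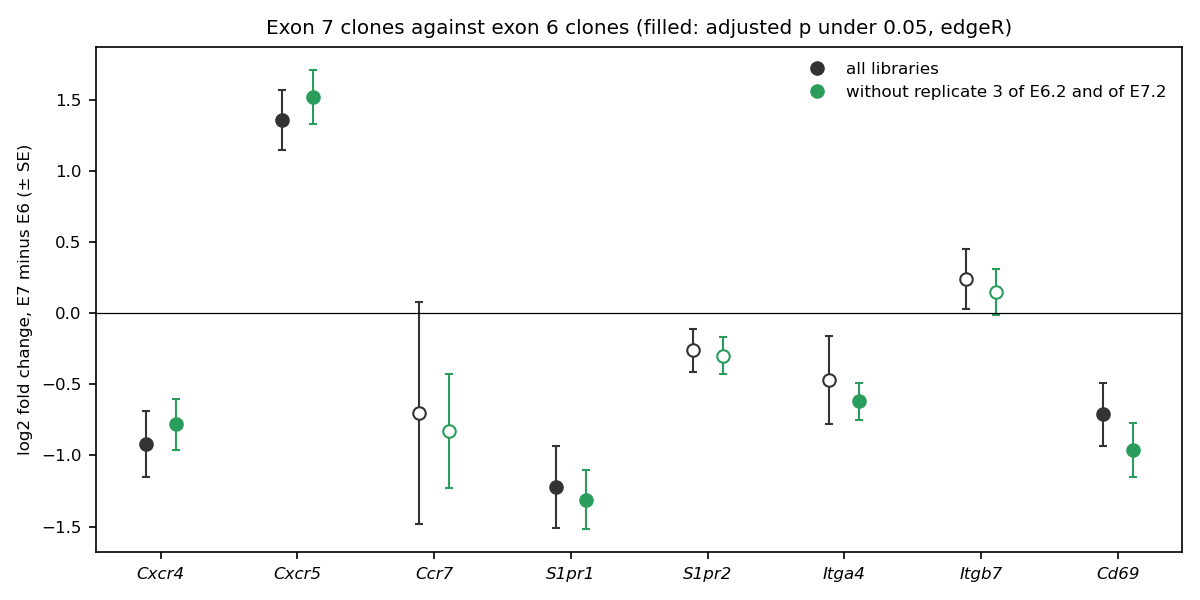
The log2 fold change of the exon 7 clones against the exon 6 clones (vertical axis, points ± SE from edgeR) for the 8 genes tested (horizontal axis), from all 15 libraries (black) and without the outlying libraries (green). Filled points passed an adjusted p of 0.05. *Itga4* passes only without these libraries, and no gene changes sign.

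*Cxcr5* (ENSMUSG00000047880, chromosome 9:44511788-44556391, minus strand), the receptor for the follicular chemokine CXCL13, was the member that separated the exon 7 from the exon 6 clones most clearly. Its CPM was 41.9, 20.1 and 28.9 in the parental libraries, 16.6, 23.5 and 16.7 in E6.1, and 9.72, 13.1 and 22.3 in E6.2. It was 48.3, 43.7 and 35 in E7.1 and 39.3, 41.8 and 52 in E7.2. All 6 exon 7 libraries were above all 6 exon 6 libraries, which was so for 1.81% of all genes tested, and the parental libraries overlapped both.

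*Cxcr5* was 2.57-fold higher in the exon 7 clones than in the exon 6 clones (log2 fold change 1.36, SE 0.21, adjusted p = 0.00337 from edgeR with Benjamini-Hochberg adjustment). Without the outlying libraries the log2 fold change was 1.52. It was 1.20 without clone E6.2, where the adjusted p was 0.0511. Over all 23 alternatives the adjusted p ranged from 6.05e-08 to 0.0511, and 22 passed. Against the parental line the estimates had opposite signs without passing the test, at -0.68 for E6.1, -1.01 for E6.2, 0.48 for E7.1 and 0.55 for E7.2, each with an SE of 0.30. The largest of these, in E6.2, was called without replicate 3 of that line (log2 fold change -1.39, adjusted p = 0.0348, from 0.0211 to 0.657 over its alternatives).

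*Cxcr4* (ENSMUSG00000045382, chromosome 1:128588199-128592293, minus strand) is the receptor for CXCL12. It had 175, 326 and 344 CPM in the parental libraries, 381, 367 and 383 in E6.1, and 322, 352 and 737 in E6.2. In E7.1 it had 119, 184 and 175 CPM, and in E7.2 it had 255, 264 and 409. E7.1 lay below every library of the other clones but overlapped parental replicate 1, and the E7.2 libraries overlapped those of E6.1 and E6.2. The share of all genes with E7.1 below the other clones was not counted. The 3 E6.1 libraries were all above the parental ones, as for 11.3% of all genes, and this difference did not pass the test (log2 fold change 0.42, SE 0.32, adjusted p = 0.936, edgeR).

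*Cxcr4* was 1.9-fold lower in the exon 7 than in the exon 6 clones (log2 fold change -0.92, SE 0.23, adjusted p = 0.023 from edgeR with Benjamini-Hochberg adjustment). The value was -0.78 without the outlying libraries, and -0.44 without clone E7.1, where it did not pass the test (adjusted p = 0.441, the highest of its alternatives, the lowest being 0.00168). The call was made in 16 of 23 alternatives. It was also lost without clone E6.2 (-0.76, adjusted p = 0.16) and without E6.1 replicate 1 or 3, E7.1 replicate 1, or E7.2 replicate 1 or 2 (adjusted p from 0.0629 to 0.0666, edgeR). Against the parental line the log2 fold change was -0.82 (SE 0.32, adjusted p = 0.176) in E7.1 and 0.14 (SE 0.32, adjusted p = 0.861) in E7.2 by the same test.

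*Ccr7* (ENSMUSG00000037944, chromosome 11:99144196-99155077, minus strand), the receptor for the T-zone chemokines CCL19 and CCL21, varied most of the tested members. The parental libraries had 7.53, 11.2 and 18 CPM, those of E6.1 had 12.6, 4.09 and 6.5, and those of E7.1 had 0.884, 4.19 and 2.12. E6.2 had 4.68, 6.83 and 71.4 CPM, and E7.2 had 4.94, 6.32 and 89.7. Replicate 3 was thus 12.5-fold above the mean of the other replicates in E6.2 and 15.9-fold in E7.2, higher in each than 99.9% of all genes. The same ratio was 1.96 in the parental line, 0.905 in E6.1 and 1.09 in E7.1.

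No comparison of *Ccr7* passed the test with all libraries, although with no filter on low counts E7.2 against E7.1 and the comparison of the 5 lines did, and its direction against the parental line turned with these libraries. In E6.2 the log2 fold change was 1.17 (SE 1.09) with all libraries and -1.09 (SE 0.57) without the outlying libraries. In E7.2 it was 1.45 (SE 1.09) and -1.09 (SE 0.57), respectively. In E7.1 it was -2.35 (SE 1.16, adjusted p = 0.273) and, without them, -2.32 (SE 0.52, adjusted p = 0.0155, the only 1 of its 13 alternatives to pass, which reached up to 0.572), by edgeR with Benjamini-Hochberg adjustment. The 3 E7.1 libraries lay below the parental ones, as for 15.6% of all genes tested.

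**Figure D4:**
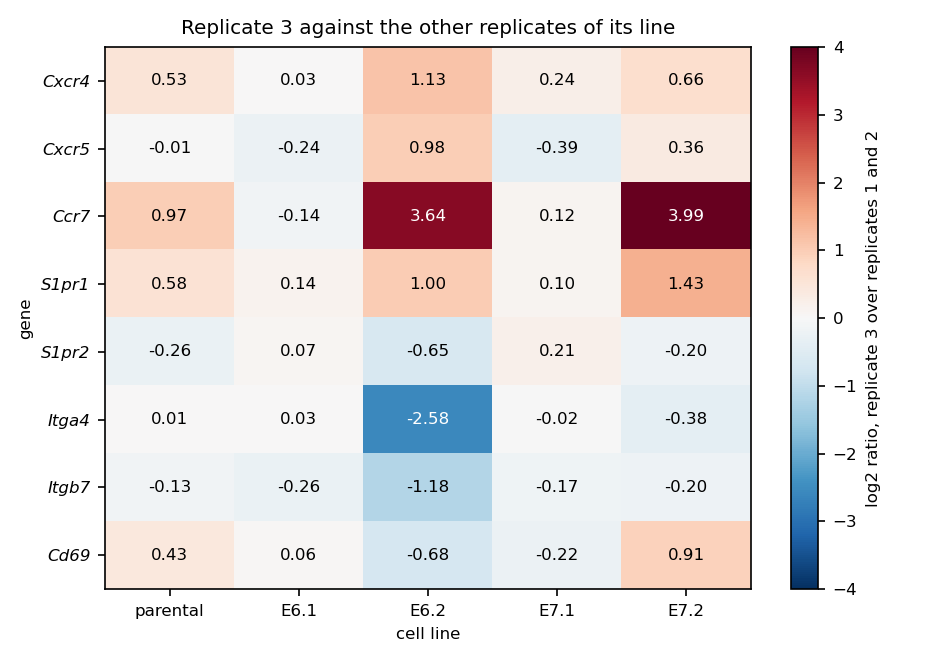
The log2 ratio of replicate 3 to the other replicates of its line (colour, with the value printed) for the 8 genes tested (rows) in the 5 lines (columns), where 0 is no difference. *Ccr7* is at 3.64 in E6.2 and 3.99 in E7.2, and *Itga4* is at -2.58 in E6.2 and -0.38 in E7.2.

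*S1pr1* (ENSMUSG00000045092, chromosome 3:115710433-115715055, minus strand), the egress receptor, was low in E7.1. It had 19.6, 45.7 and 44.7 CPM in the parental libraries, 50.5, 35.3 and 46.5 in E6.1, and 38.5, 51 and 89 in E6.2. It had 12.5, 13.8 and 14 CPM in E7.1, and 22.7, 23.4 and 61.9 in E7.2. The 3 E7.1 libraries were below all other 12 libraries, whereas replicate 3 of E7.2 was exceeded only by that of E6.2. For 15.6% of all genes the E7.1 libraries lay below the parental ones, and the share below all 12 was not counted.

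*S1pr1* was 2.33-fold lower in the exon 7 than in the exon 6 clones (log2 fold change -1.22, SE 0.29, adjusted p = 0.0194 from edgeR with Benjamini-Hochberg adjustment). The value was -1.31 without the outlying libraries. It was -1.93 without clone E7.2 and -0.51 without clone E7.1, where it did not pass the test (adjusted p = 0.482, the highest of 23 alternatives, the lowest being 0.000688). The call was made in 16 of them. It was also lost without clone E6.2 (adjusted p = 0.142) and without E6.1 replicate 1 or 3, E7.1 replicate 1, or E7.2 replicate 1 or 2 (adjusted p from 0.0524 to 0.0619, edgeR). Against the parental line the log2 fold change in E7.1 was -1.45 (SE 0.41, adjusted p = 0.0816, edgeR), and 4 of its 13 alternatives passed, with adjusted p from 0.00941 to 0.309. In E7.2 it was -0.03 (SE 0.40) with all libraries and -0.64 (SE 0.29) without the outlying libraries, neither of which passed.

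Across the 15 libraries *Cxcr4* and *S1pr1* ran close together in log2 CPM (Pearson r = 0.95, and 0.88 after the mean of each line was taken away). *Ccr7* followed both, with r = 0.79 with *Cxcr4* and 0.81 with *S1pr1*. Without the outlying libraries, in which all 3 genes were high, the values over the other 13 were 0.94 for *Cxcr4* with *S1pr1* (0.85 within lines), and 0.73 and 0.75 for *Ccr7*. These are descriptions over libraries that share lines, and were not tested.

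*S1pr2* (ENSMUSG00000043895, chromosome 9:20965952-20976793, minus strand), the confining receptor of germinal center B cells, was the steadiest member. Its lines averaged between 44.9 ± 6.62 CPM in E7.1 and 57.3 ± 3.5 CPM in E6.1 (SD, n = 3), and its libraries ranged from 36.6 to 69.2. In the exon 7 against the exon 6 clones its log2 fold change was -0.26, with a 95% interval of -0.58 to 0.05. It did not pass the test in any comparison, and its highest-to-lowest library ratio of 1.89 was the smallest of the 9.

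*Gpr183* (ENSMUSG00000051212, chromosome 14:121952331-121965193, minus strand) was at or near the limit of detection and was removed by the filter on low counts. It had 17, 4 and 4 counts in the parental libraries, 2, 7 and 8 in E6.1, 7, 2 and 5 in E7.1, and 0, 6 and 4 in E7.2. In E6.2 it had 71, 2 and 3 counts, the first of which is 2.79 CPM. Replicate 1 of E6.2 was therefore above all other libraries, and it was not one of the 2 called outlying here. In the fit without a filter no comparison of *Gpr183* passed, the lowest adjusted p being 0.139 for any difference among the 5 lines (edgeR, 24777 genes tested).

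*Itga4* (ENSMUSG00000027009, chromosome 2:79255426-79333123, plus strand) encodes the integrin α4 chain. It had 34.6, 49.4 and 41.5 CPM in the parental libraries, 36.5, 30 and 33.9 in E6.1, and 55, 37.1 and 7.52 in E6.2. In E7.1 it had 26.3, 21.5 and 23.4 CPM, and in E7.2 it had 24.9, 27.7 and 20.2. All 6 exon 7 libraries lay below the 3 parental libraries, and replicate 3 of E6.2 was the lowest of all. Non-overlap with the parental libraries in this direction held for 15.6% of all genes in E7.1 and 13.3% in E7.2, each clone taken alone. The share for which it held in both clones together was not counted.

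*Itga4* did not pass the test in E7.1 (log2 fold change -0.82, SE 0.44, adjusted p = 0.319) or E7.2 (-0.79, SE 0.44, adjusted p = 0.442, edgeR with Benjamini-Hochberg adjustment). Without the outlying libraries its SE dropped to 0.16 for E7.1 and 0.18 for E7.2. The log2 fold changes were then -0.79 for E7.1, which passed (adjusted p = 0.0114, from 0.0114 to 0.593 over its alternatives), and -0.64 in E7.2, which did not (adjusted p = 0.0881). Exons of *Itga4* overlap those of *Cerkl*, which had at most 414 counts, and pairs that hit both genes were not counted.

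*Itgb7* (ENSMUSG00000001281, chromosome 15:102215995-102231935, minus strand), the β7 chain that pairs with α4 for homing to the gut, was expressed at a low level. It ranged from 1.14 CPM in replicate 3 of E6.2, which was also the lowest library for *Itga4*, to 3.39 CPM in E7.2, and passed no test. In the exon 7 against the exon 6 clones its log2 fold change was 0.24, with a 95% interval of -0.21 to 0.69. The β1 chain (*Itgb1*), the other partner of α4, was far more abundant at 219 to 709 CPM, and the 709 CPM was in the same replicate 3 of E6.2.

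*Cd69* (ENSMUSG00000030156, chromosome 6:129267324-129275369, minus strand) encodes an early activation antigen that retains lymphocytes in tissue. *Foxp1* lies far away on the same chromosome, at 98925338-99522721, and a link between these positions was not tested. Of 13 genes tested within 500 kb of *Cd69*, 0 were called in E7.1 against the parental line. *Cd69* had 13.3, 11 and 16.3 CPM in the parental libraries, 11.3, 6.74 and 9.11 in E6.1, and 13.1, 13.6 and 8.33 in E6.2. It had 3.7, 6.26 and 4.12 CPM in E7.1, and 6.55, 6.51 and 12.3 in E7.2. All 3 E7.1 libraries were below all other 12 libraries. They lay below the parental ones for 15.6% of all genes, and the share below all 12 was not counted.

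*Cd69* was 2.88-fold lower in E7.1 than in the parental line (log2 fold change -1.53, SE 0.31, adjusted p = 0.0387 from edgeR with Benjamini-Hochberg adjustment). It was also lower there without the outlying libraries (adjusted p = 0.00537). The call was made in 8 of 13 alternatives, with adjusted p from 0.000392 to 0.219. It was lost with the replicate number as a block (-1.51, adjusted p = 0.0507) and without parental replicate 2 or 3 or E7.1 replicate 1 or 3 (edgeR). In the other clones the estimates were -0.58 for E6.1, -0.21 for E6.2 and -0.68 for E7.2, each with an SE of 0.31, and none passed. The value for E7.2, whose replicate 3 was the highest of its 3 libraries, was -1.02 without the outlying libraries and did not pass there either (adjusted p = 0.0729, edgeR).

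The exon 7 clones were 1.64-fold lower in *Cd69* than the exon 6 clones (log2 fold change -0.71, SE 0.22, adjusted p = 0.0491 by the same test). The value was -0.96 without the outlying libraries (adjusted p = 0.00327). The call was made in 10 of 23 alternatives, with adjusted p up to 0.609. It was lost with DESeq2 size factors in edgeR and with only the libraries of the lines compared in the fit. It was also lost with the replicate block (-0.72, adjusted p = 0.0661, edgeR), without clone E6.2 (-0.53) and without clone E7.1 (-0.29). Of the 12 single libraries of these clones, only the removal of E6.1 replicate 2, E7.1 replicate 2 or either outlying library kept it.

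Within a pair of clones targeted in the same exon no member passed the test. For E6.2 against E6.1, 1.24% of all genes were called, 0 members had an unadjusted p under 0.05 (12.9% of all genes, edgeR), and 0 were called by DESeq2. For E7.2 against E7.1, 0.59% of all genes were called, 4 members had an unadjusted p under 0.05 (13.3% of all genes), and DESeq2 called 1, *S1pr1*. In that pair *Cxcr4*, *Ccr7*, *S1pr1* and *Cd69* were each higher in all 3 E7.2 libraries than in all 3 E7.1 libraries, as were 12.4% of all genes. Their log2 fold changes were 0.96 (SE 0.33), 3.80 (SE 1.21), 1.42 (SE 0.41) and 0.85 (SE 0.31). Without the outlying libraries they were 0.71, 1.23, 0.78 and 0.48.

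Leaving out those 2 libraries lowered the common biological coefficient of variation from 0.276 to 0.209 and raised the calls over all genes as well as over the members. In E7.1 against the parental line 5 members were called, namely *Cxcr4*, *Ccr7*, *S1pr1*, *Itga4* and *Cd69*, all lower, while 15.2% of all genes were. In the exon 7 against the exon 6 clones *Itga4* joined the 4 genes above, making 5 members, while 33.1% of all genes were called.

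The wider pathway was described with 6 lists of related genes, of which 101 of 154 passed the filter. A call in at least 1 of the 9 comparisons was made for 29 of the 101 (28.7%), against 13.9% of all genes tested. In the exon 7 against the exon 6 clones, where 12.1% of all genes were called, 6.21% higher and 5.85% lower, 11 of 35 genes of the G-protein, arrestin and cytoskeletal list were called, 10 higher and 1 lower. Of the other chemoattractant receptors 4 of 14 were called, 3 higher and 1 lower, and of the other integrins and adhesion receptors 3 of 17, all higher. Of the integrin activation genes 2 of 19 were called, all higher, and the share called in either direction was no larger than the 12.1% of all genes. Of the transcription factors known from homing receptor genes 4 of 7 were called, 3 higher and 1 lower. The list medians were 0.26, 0.44, 0.06, 0.11 and 0.52 on the log2 scale, against -0.03 for all genes. Of the ligands and their enzymes, 0 of 9 were called by edgeR in any comparison.

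Without the outlying libraries, an alternative chosen for these lists after the data were seen, 33.1% of all genes were called between the exons. The calls were then 22 of 36 in the G-protein list (19 higher and 3 lower), 7 of 14 in the chemoattractant receptors (5 higher and 2 lower) and 4 of 17 in the adhesion receptors, all higher. They were 4 of 19 in the integrin activation genes, all higher, 4 of 7 in the transcription factors (3 higher and 1 lower), and 4 of 9 in the ligands and their enzymes (2 higher and 2 lower). The list medians were 0.29, 0.57, 0.18, 0.11, 0.53 and -0.20, against -0.02 for all genes. For the 12 genes described next, all 22 calls made between lines with all libraries were also made without these.

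**Figure D5:**
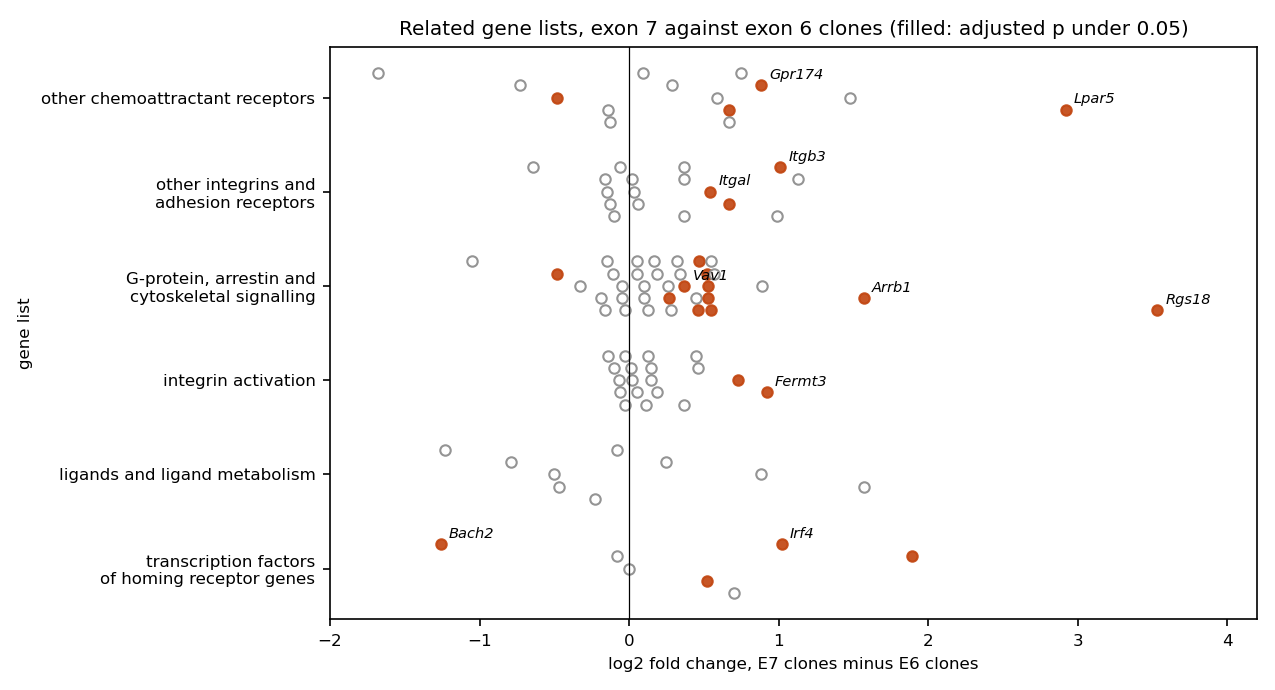
The log2 fold change of the exon 7 against the exon 6 clones (horizontal axis) for the 101 genes tested of 6 related lists (vertical axis, each point 1 gene, spread vertically for legibility). Filled points passed an adjusted p of 0.05 (edgeR), and those among the 12 genes named in the text are labelled. In the G-protein list, 10 of the 11 filled points lie to the right of 0, and the position of *Rgs18* depends on the prior count because E6.2 held 0 counts.

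Of the 12 genes of these lists with the smallest adjusted p, *Arrb1*, *Vav1*, *Fermt3* and *Gpr174* were among those higher in the exon 7 than in the exon 6 clones. *Arrb1*, encoding β-arrestin 1, which uncouples and internalizes chemokine receptors, had a log2 fold change of 1.57 (SE 0.33), with a mean of 0.229 ± 0.0156 CPM in E6.2 and between 0.755 and 1.5 CPM in the other lines. *Vav1*, an exchange factor for Rac, had one of 0.37 (SE 0.08). *Fermt3*, encoding the integrin activator kindlin-3, rose from 27.1 ± 5.88 CPM in E6.1 and 25.6 ± 2.67 in E6.2 to 56.5 ± 1.7 in E7.1 and 43.7 ± 3.59 in E7.2 (SD, n = 3, log2 fold change 0.92, SE 0.17). *Gpr174*, encoding a lysophosphatidylserine receptor of B cells, had a log2 fold change of 0.88 (SE 0.19), with a mean of 20.1 ± 8.27 CPM in E6.2 and between 37.7 and 56.7 CPM in the other lines. All 4 passed in the exon 7 against exon 6 comparison, with adjusted p of 0.012, 0.0135, 0.00621 and 0.0135 from edgeR with Benjamini-Hochberg adjustment.

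For other genes of the 12, a single clone had a mean below those of the other lines. *Itgal*, encoding the αL chain of LFA-1, averaged 53.2 ± 14.2 CPM in E6.2 and between 96 and 124 CPM in the other 4 lines (SD, n = 3), a log2 fold change of -0.85 (SE 0.16) in E6.2 against the parental line. *Irf4*, a transcription factor of activated B cells and plasma cells, averaged 14.2 ± 3.73 CPM in E6.2 and between 34.2 and 57.4 CPM in the other lines (log2 fold change -1.64, SE 0.25). *Itgb3*, encoding the integrin β3 chain, averaged 18.5 ± 3.32 CPM in E6.2 and between 32.2 and 61.1 CPM elsewhere (log2 fold change -1.33, SE 0.29). These 3 passed in E6.2 against the parental line with adjusted p of 0.0183, 0.00333 and 0.038 (edgeR), and also in the exon 7 against the exon 6 clones. *Rgs18*, a regulator of G-protein signalling, had 0 counts in all E6.2 libraries and a mean of 0.73 CPM in the parental line, and *Lpar5*, a lysophosphatidic acid receptor, averaged 0.0433 CPM in E6.1 and 0.826 in the parental line. Both passed in those clones and in the exon 7 against the exon 6 clones.

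*Bach2*, a repressor of plasma cell differentiation, averaged 111 ± 10.8 CPM for E6.1, 86.7 ± 35.6 for E6.2, 32.9 ± 5.77 for E7.1 and 51.3 ± 3.54 for E7.2 (SD, n = 3), and was lower in the exon 7 than in the exon 6 clones (log2 fold change -1.26, SE 0.26, adjusted p = 0.0109, edgeR). *Itga6*, encoding the laminin-binding α6 chain, averaged 12.9 ± 3.08 CPM in the parental line and 4.59 to 6.96 CPM in the clones. It was lower in the mean of the 4 clones than in the parental line (log2 fold change -1.19, SE 0.19, adjusted p = 0.00964). Taken singly, it passed in E6.2 (-1.49, SE 0.27, adjusted p = 0.0118) and missed the threshold in E6.1 (-1.26, adjusted p = 0.0757), E7.1 (-1.13, adjusted p = 0.0546) and E7.2 (-0.89, adjusted p = 0.216). It did not pass in the exon 7 against the exon 6 clones (0.37, SE 0.19, adjusted p = 0.203, edgeR). *Vcl*, encoding vinculin, averaged 3.43 ± 0.768 CPM in E6.1 and 6.51 to 9.13 CPM elsewhere, passed for E6.2 against E6.1, and did not pass between the exons (log2 fold change 0.45, adjusted p = 0.093, edgeR), where it did without the outlying libraries (0.62, adjusted p = 0.0106). *Klf2*, a factor known to drive *S1pr1*, had 7 to 26 counts in a library and passed in no comparison.

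Markers of other cell states moved in the same exon 7 against exon 6 comparison. Of 4 plasma cell markers *Sdc1* (log2 fold change 1.46) and *Prdm1* (1.33) were higher, and their summed level was 861 to 1880 CPM in the exon 6 and 1470 to 2000 CPM in the exon 7 libraries, nearly all from *Jchain*, with *Tnfrsf17* at no more than 3 counts. Of 8 B-cell markers *Cd79a* (1.08) and *Ms4a1* (0.44) were higher. Of 3 NK-cell markers *Klrb1c* was lower (-1.21), with *Ncr1* and *Nkg7* at 0 in every library, and of 4 fibroblast markers *Pdgfrb* was lower (-2.54) at no more than 0.756 CPM. The part of these shifts in the receptor values was not tested.

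The genes whose log2 CPM followed a called member most closely over the 15 libraries are given as a description. For *Cxcr5* they were *Enah* (Pearson r = 0.97), *Chst11* (0.96) and *Grk5* (0.94), the last a receptor kinase from the G-protein list. For *Cxcr4* they were *Nub1* (0.98), *Rnf114* (0.98) and *Cd2bp2* (0.96), and for *S1pr1* they were *Snhg12* (0.98), *Khnyn* (0.97) and *N4bp2l1* (0.97). For *Cd69* the nearest genes were *Arhgap12*, *Zfp983* and *Cage1*, each at r = 0.92. They are the highest of 13904 genes, and the points share lines and libraries.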

How the data were processed

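The authors deposited raw counts of read pairs per gene for each library. Per the file headers and processing notes, reads were aligned with HISAT and counted without strand by featureCounts 1.5.0 on GRCm38, leaving out pairs that aligned to several places or overlapped several genes. The 92 ERCC spike-in features held 0 counts and were left out. Symbols were assigned by identifier to 40254 of 41388 genes, and positions are from GENCODE on GRCm38.

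Counts were tested in R 4.3.3 with edgeR 4.0.16 (filterByExpr, 13904 genes; TMM; glmQLFit and glmQLFTest with defaults) in 1 fit of the 15 libraries, with Benjamini-Hochberg adjustment over all genes in each of 9 comparisons and calls at an adjusted p under 0.05. Levels are TMM-normalized CPM, or RPKM by summed exon length. The fit was tested on simulated counts with changes in E7.1 only, drawn independently for each library. Deviations shared by the outlying libraries were therefore not simulated, and the other comparisons were not tested with changes of their own. For E7.1 against the parental line the fit called 88 of 112 4-fold and 30 of 88 2-fold changes, with 11 false calls. A gene that did not pass may therefore still differ by 2-fold. Promoters are from RefSeq.

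The members, the gene lists and the comparisons were chosen with earlier results of these data known. Named in the text are *Foxp1*, all members, the 12 related genes with the smallest adjusted p among those called, and the 3 genes most correlated with each called member; *Klf2*, *Itgb1*, *Cxcl12*, *Ccl19*, the overlapping *Cerkl* and the markers were added as context. Alternatives were DESeq2 1.42.0 (size factors within edgeR, and its own test), no filter, another quasi-likelihood method, a replicate block, fewer lines in the fit and each library left out. Both outlying libraries were also left out, and these were picked from their values in these data. Added after the data were seen were each clone left out and the related lists without both outlying libraries.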

Additional observations from a re-analysis of the deposited data

Results flagged for a closer look

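For 4 homing receptors the effect against the parental line differed between the exon 7 and the exon 6 clones, by a test of that difference in the fit of all libraries (edgeR with Benjamini-Hochberg adjustment). On the log2 scale the exon 7 effect minus the exon 6 effect was 1.36 for *Cxcr5* (adjusted p = 0.00337), -1.22 for *S1pr1* (adjusted p = 0.0194), -0.92 for *Cxcr4* (adjusted p = 0.023) and -0.71 for *Cd69* (adjusted p = 0.0491). The parental libraries cancel out of this difference, and 2 clones stand for each exon.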

How the results depend on the processing

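Members are counted at an adjusted p under 0.05. With no filter, 2 members were called in E7.1 against the parental line, 2 in E7.2 against E7.1 and 5 among the 5 lines. With DESeq2, members called numbered 1 for E6.2, 2 for E7.1, 1 for E7.2 against E7.1 and 4 among the 5 lines. Without both outlying libraries they numbered 1 for E6.2, 5 for E7.1 and 6 among the 5 lines. With the replicate block 0 members were called in E7.1 in place of 1, and *Cd69* was lost between the exons as well. The *Cd69* call between the exons was also lost with DESeq2 size factors in edgeR and with fewer lines in the fit. Replicate numbers were not treated as pairs in the main fit. Of 30 same-numbered pairs of libraries from different lines, 11 had a correlation of deviations from the line means over 0.1. The mean correlation was 0.0531 for same-numbered and -0.0249 for differently numbered pairs. The highest, 0.426, was between the 2 outlying libraries. The block changed no count of members by over 1.5 times in another comparison. Without clone E6.2, 0 members were called in the exon 7 against the exon 6 clones, and without clone E7.1, 1 member. With each library left out in turn the members called ranged from 0 to 1 in E6.2, from 0 to 2 in E7.1, from 1 to 5 in the exon 7 against the exon 6 clones and from 1 to 5 among the 5 lines, and were 0 in the other comparisons. *Cxcr5* was called between the exons in all 12 of those fits, and it alone was called without E6.1 replicate 1 or 3, E7.1 replicate 1, or E7.2 replicate 1 or 2.

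Signs turned for log2 fold changes that did not pass the test. *Itga4* in E6.2 against E6.1 was 0.03 with DESeq2 size factors, with DESeq2 and with only those lines, in place of -0.01. Without both outlying libraries, *Ccr7* was -1.09 in E6.2, -1.09 in E7.2 and -0.43 in E6.2 against E6.1, *Itga4* was 0.13 in E6.2 and 0.45 in E6.2 against E6.1, *Itgb7* was 0.13 in E6.2, *S1pr2* was 0.01 in E7.2 and 0.02 in E6.2 against E6.1, *Cxcr5* was -0.05 in E7.2 against E7.1, and *Cxcr4* was -0.08 in E7.2, -0.17 in E6.2 against E6.1 and -0.05 in the mean of the clones. *Ccr7* between the exons was 0.22 without clone E6.2 and 1.20 without clone E7.1.

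With each library left out, *Cxcr4* ranged from -0.09 to 0.31 in E7.2, from -0.12 to 0.29 in the mean of the clones and from -0.14 to 0.52 in E6.2 against E6.1. *Cxcr5* ranged from -0.39 to 0.15 in the mean and from -0.05 to 0.17 in E7.2 against E7.1. *Ccr7* ranged from -1.07 to 1.66 in E6.2, from -1.09 to 1.97 in E7.2, from -0.72 to 0.29 in the mean, from -1.97 to 0.44 between the exons and from -0.40 to 2.38 in E6.2 against E6.1. *S1pr1* ranged from -0.04 to 0.46 in E6.1, from -0.64 to 0.22 in E7.2 and from -0.42 to 0.06 in the mean. *S1pr2* ranged from -0.21 to 0.30 in E6.2, from -0.19 to 0.08 in E7.1, from -0.18 to 0.09 in E7.2, from -0.06 to 0.22 in the mean, from -0.45 to 0.06 in E6.2 against E6.1 and from -0.10 to 0.09 in E7.2 against E7.1. *Itga4* ranged from -0.92 to 0.16 in E6.2, from -0.59 to 0.49 in E6.2 against E6.1 and from -0.08 to 0.16 in E7.2 against E7.1, and *Itgb7* from -0.44 to 0.15 in E6.2 and from -0.59 to 0.01 in E6.2 against E6.1. No call turned direction. The causes were not tested. All 45 mean levels moved by less than 1 SD under DESeq2 size factors. *Gpr183* had no more than 17 counts outside replicate 1 of E6.2, so that differences in it were not detectable at this depth.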

Other observations

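Both integrin chains of the α4β7 receptor were lowest in replicate 3 of E6.2, at 7.52 CPM for *Itga4* and 1.14 CPM for *Itgb7*, one of the outlying libraries. Over the 15 libraries their log2 CPM had a Pearson r of 0.61, and of 0.89 after the mean of each line was taken away. Over the 13 libraries without the outlying ones these values were -0.30 and 0.19, so the relation rests on the outlying libraries. *Itgb1* was at its highest there, at 709 CPM, and *Itga4* at its lowest, so the ratio of the α4 chain to its more abundant partner was at its lowest in this library as well.

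*Ccr7* spanned 102-fold between its lowest library, replicate 1 of E7.1 at 0.884 CPM, and its highest, replicate 3 of E7.2 at 89.7 CPM, the widest span of the 8 members that passed the filter. *Foxo1*, a forkhead factor known from the control of homing receptor genes, was at 151 to 229 CPM over the same libraries. Its highest value was also in replicate 3 of E7.2, against 164 and 179 CPM in replicates 1 and 2. In E6.2 it was at 165, 177 and 178 CPM in replicates 1 to 3. A relation between *Foxo1* and *Ccr7* was not tested.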
